A study of Mus musculus with 11 samples.

Results

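Amino acid uptake, serine synthesis and the transcription factor Atf4 were examined through 10 genes in RNA of liver CD4 T cells. The genes were chosen by name rather than by a cut on their values, but with earlier results of these data known. They are the transporter genes Slc7a5, Slc3a2, Slc1a5 and Slc38a2, the enzyme genes Asns, Phgdh, Psat1, Shmt2 and Mthfd2, and Atf4. Each matched 1 row of the deposited count table by its Ensembl ID, 10 of 56748 rows, and all 10 passed the filter on low counts that left 17987 genes to test. The study asked what loss of autophagy in CD4 T cells does during liver fibrosis. The Atg5-deficient group held 6 libraries from ATG5TLymph-/- mice, in which T lymphocytes lack Atg5, a protein needed to form autophagosomes. The wild-type group held 5 libraries from ATG5fl/fl mice, whose Atg5 gene is floxed but not deleted. All mice had received carbon tetrachloride (CCl4), a toxin that injures hepatocytes, for 5 weeks, so no library comes from an uninjured liver. The promoter that drives the deletion and the deleted exon are not stated in the labels or the series text.

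According to the series text the CD4 T cells were isolated on a flow sorter, but the labels' protocol speaks of sections cut from paraffin blocks, and nothing in the labels settles which applies. Transcripts of CD4 T cells were abundant in every library. Cd4 stood at 589 to 996 CPM (read counts relative to library size, scaled by the TMM method) in Atg5-deficient libraries and 620 to 702 CPM in wild-type libraries. Cd3e, a subunit of the T cell receptor complex, stood at 284 to 503 CPM in Atg5-deficient libraries and 353 to 425 CPM in wild-type libraries. Summed CD4 T cell markers (without TMM scaling) ran from 3514 to 5030 CPM in Atg5-deficient libraries. Wild-type libraries had 3330 to 3713 CPM (exact permutation p = 0.0173, adjusted p = 0.104 over 18 sums and library properties). Cd5 and Cd6 alone among these markers had an adjusted p under 0.05, both higher in Atg5-deficient libraries. Their log2 fold changes were 0.40 and 0.46 (adjusted p = 0.0214 and 0.00570 by edgeR). Transcripts of other cells were present too: Alb, the hepatocyte gene for serum albumin, ran from 32.9 to 608 CPM in Atg5-deficient libraries and from 23.9 to 381 CPM in wild-type libraries. Totals ran from 30699408 to 47564440 counts. Atg5 averaged 19.2 ± 2.51 CPM in Atg5-deficient libraries and 16.9 ± 3.59 in wild-type libraries (CPM, SD, n = 6 and 5), a log2 fold change of 0.18 with an adjusted p of 0.488 by edgeR. Because the deleted exon is not known here, that gene-wide count does not check the labels. Whether each library stands for its own mouse is not said in the labels. All p-values therefore refer to the spread among these libraries, which may be technical.

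T cells import amino acids when they are activated and build proteins and nucleotides from them. The product of Slc7a5 carries large neutral amino acids and reaches the cell surface only when paired with the product of Slc3a2, while the products of Slc1a5 and Slc38a2 carry small neutral amino acids, glutamine among them. Serine is made from a glycolytic intermediate by the enzymes of Phgdh, Psat1 and Psph in turn, and in mitochondria the enzymes of Shmt2 and Mthfd2 pass a carbon of serine to folate for nucleotide synthesis. Atf4 encodes a transcription factor whose translation increases when the initiation factor eIF2 is phosphorylated, so its protein can change without its mRNA, and it is known to act on the genes of many of these transporters and enzymes. Autophagy returns amino acids to the cell by breaking down its own proteins.

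The 10 genes did not differ between the genotypes past the threshold, an adjusted p under 0.05 over all genes tested by edgeR's quasi-likelihood test. The count was 0 of 10, set against 6.84% of all 17987 genes called (4.43% higher and 2.41% lower in Atg5-deficient libraries). At an unadjusted p under 0.05, 4 of 10 genes differed by edgeR, namely Psat1, Asns, Mthfd2 and Slc1a5, and all 4 were higher in Atg5-deficient libraries, where 23.4% of all genes passed that threshold in either direction and 12.7% were higher. DESeq2 called 1 of the 10 genes, Psat1, against 14.1% of the genes it tested, and limma-voom with quality weights also called Psat1 alone, against 19.0% of genes. In 0 of the 10 genes did the groups separate without overlap, which 4.86% of all genes did. Of the 10 log2 fold changes 6 were positive, with a median of 0.19 against -0.00 over all genes tested. With upper-quartile scaling the median of the 10 was 0.12 and that of all genes was -0.07. In bulk RNA, a difference in the share of cells that express a gene and a difference in RNA per cell cannot be told apart.

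**Figure D1:**
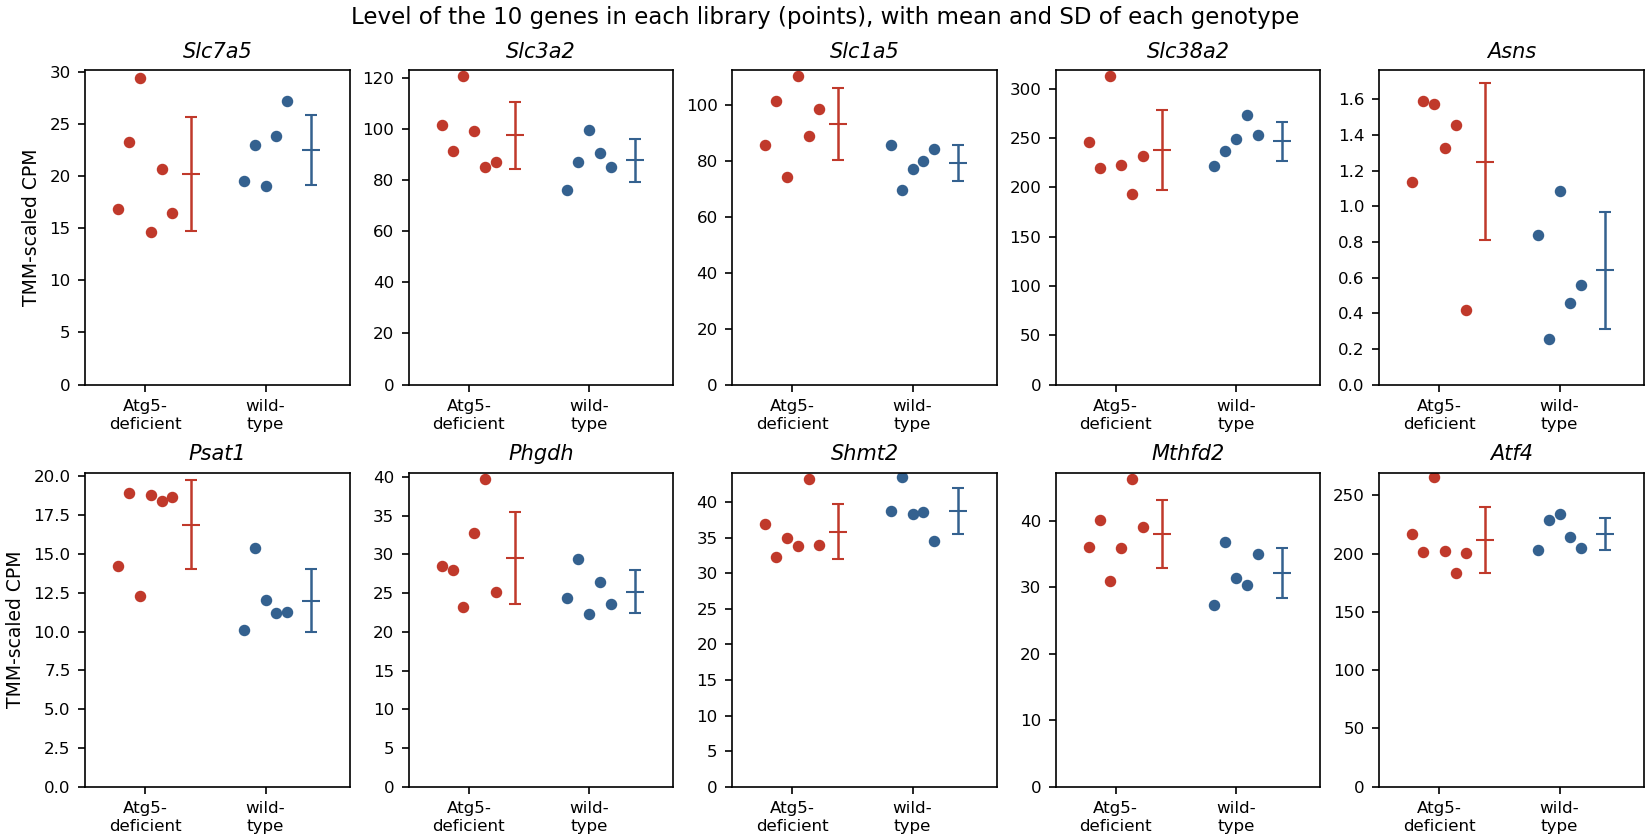
TMM-scaled CPM of each of the 10 genes in each library (vertical axes), with the 6 Atg5-deficient libraries left of the 5 wild-type libraries and the group mean and SD beside the points. The groups overlap in every panel. Asns has the most Atg5-deficient libraries above all wild-type libraries, 5 of 6, and the other lies within the wild-type range.

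Levels compared per kilobase of annotated exon put Atf4 first, at 89.7 ± 12.1 CPM per kb in Atg5-deficient libraries and 91.9 ± 5.91 CPM per kb in wild-type libraries (SD, n = 6 and 5). Slc3a2 followed at 27.6 ± 3.71 CPM per kb in Atg5-deficient libraries and 24.8 ± 2.40 CPM per kb in wild-type libraries, and Slc38a2 at 26.9 ± 4.60 CPM per kb in Atg5-deficient libraries and 27.9 ± 2.21 CPM per kb in wild-type libraries. Those neighbours did not differ beyond their spread. Slc1a5 stood at 22.4 ± 3.08 CPM per kb in Atg5-deficient libraries and 19.0 ± 1.56 CPM per kb in wild-type libraries. Phgdh, Shmt2 and Mthfd2 came next, at 11.9 ± 2.39, 11.5 ± 1.26 and 10.9 ± 1.47 CPM per kb in Atg5-deficient libraries. Their order there could not be told from the spread. In wild-type libraries they stood at 10.1 ± 1.12, 12.5 ± 1.03 and 9.23 ± 1.09 CPM per kb, with Shmt2 the highest and Mthfd2 the lowest mean. Below them lay Slc7a5, at 5.46 ± 1.48 CPM per kb in Atg5-deficient libraries and 6.08 ± 0.904 CPM per kb in wild-type libraries. Psat1 had 3.97 ± 0.676 CPM per kb in Atg5-deficient libraries and 2.82 ± 0.474 CPM per kb in wild-type libraries. Asns was the lowest, at 0.457 ± 0.161 CPM per kb in Atg5-deficient libraries and 0.234 ± 0.119 CPM per kb in wild-type libraries.

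The 4 transporters gave no call, and their differences pointed both ways. Slc7a5 (ENSMUSG00000040010, GRCm38 chromosome 8, 121881150 to 121907694, minus strand) had 16.9, 23.3, 29.4, 14.7, 20.7 and 16.5 CPM in Atg5-deficient libraries, against 19.5, 23.0, 19.1, 23.8 and 27.2 CPM in wild-type libraries. The Atg5-deficient libraries held both the highest and the lowest value, with 3 below every wild-type library and 1 above. The log2 fold change was -0.16 (SE 0.17, adjusted p = 0.623 by edgeR). Slc3a2 (ENSMUSG00000010095, chromosome 19, 8706882 to 8723369, minus strand) encodes the heavy chain that several light chains share. It had 101, 91.2, 121, 99.1, 85.2 and 86.9 CPM in Atg5-deficient libraries, against 76.1, 87.0, 99.3, 90.7 and 85.0 CPM in wild-type libraries, a log2 fold change of 0.15 (SE 0.10, adjusted p = 0.387 by edgeR). The groups overlapped over most of their range, and 2 Atg5-deficient libraries exceeded every wild-type library.

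Slc1a5 (ENSMUSG00000001918, chromosome 7, 16781340 to 16798274, plus strand), the exchanger of glutamine and other neutral amino acids, had the smallest p of the transporters. It had 85.9, 102, 74.4, 110.5, 89.0 and 98.6 CPM in Atg5-deficient libraries, against 85.9, 69.5, 77.1, 80.0 and 84.4 CPM in wild-type libraries. In 4 of 6 Atg5-deficient libraries the level was above all wild-type libraries, while replicates 1 and 3 were not. The log2 fold change of 0.23 (SE 0.10) had an unadjusted p of 0.0347 and an adjusted p of 0.175 by edgeR. It passed in only 1 of 20 alternative fits, edgeR without Atg5-deficient replicate 3 (adjusted p = 0.0432). Slc38a2 (ENSMUSG00000022462, chromosome 15, 96687392 to 96699730, minus strand), a sodium-coupled transporter known to be induced when amino acids run short, had 246, 219, 313, 222, 194 and 232 CPM in Atg5-deficient libraries, against 221, 237, 249, 274 and 253 CPM in wild-type libraries. Its groups overlapped, with the highest and the lowest library both Atg5-deficient, and the log2 fold change was -0.05 (SE 0.11, adjusted p = 0.811 by edgeR).

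Asns (ENSMUSG00000029752, chromosome 6, 7675169 to 7693254, minus strand) encodes asparagine synthetase, which makes asparagine from aspartate and glutamine and is a textbook target of Atf4. It had 1.14, 1.59, 1.57, 1.33, 1.46 and 0.420 CPM in Atg5-deficient libraries, against 0.836, 0.258, 1.09, 0.456 and 0.560 CPM in wild-type libraries. Apart from Atg5-deficient replicate 6, which was lower than 4 of the 5 wild-type libraries, every Atg5-deficient library was above all wild-type libraries. The log2 fold change of 0.95 (SE 0.44) was the largest of the 10 genes and had an unadjusted p of 0.0451 and an adjusted p of 0.202 by edgeR. The gene had only 8 to 63 counts per library, so counting error alone is a sizeable part of each value. Its promoter is shown because it was the only one of the 8 genes with a RefSeq promoter window in which the core TGATGNAA was found on either strand. That core belongs to the C/EBP-ATF response element, known from the human ASNS gene. RefSeq windows (GRCm38.p6) run from 250 bases before to 50 bases after a gene's start. The Asns window, chr6:7693160-7693459, is given for the minus strand, 5′ to 3′, with the match in capitals.
Asns: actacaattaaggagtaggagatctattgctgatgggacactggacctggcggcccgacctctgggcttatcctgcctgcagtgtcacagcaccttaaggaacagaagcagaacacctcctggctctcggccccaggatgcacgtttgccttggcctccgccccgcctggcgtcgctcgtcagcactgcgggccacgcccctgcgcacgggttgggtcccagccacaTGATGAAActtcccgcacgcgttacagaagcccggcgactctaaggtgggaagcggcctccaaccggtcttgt

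The match TGATGAAA lies from 23 to 16 bases before the RefSeq start. Of 32851 windows, 3.97% hold TGATGNAA on either strand, and the E-box CACGTG, a sequence bound by Myc and other factors, is in 7.15% of windows and in those of 0 of the 8 genes. No window was at hand for Slc7a5 and Slc1a5. A match describes letters, not occupancy.

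Serine synthesis held the gene nearest to the threshold, Psat1. Psat1 (ENSMUSG00000024640, chromosome 19, 15904678 to 15947337, minus strand) encodes the transaminase that makes phosphoserine. It had 14.2, 18.9, 12.3, 18.8, 18.4 and 18.6 CPM in Atg5-deficient libraries, against 10.1, 15.4, 12.1, 11.2 and 11.3 CPM in wild-type libraries. The 4 Atg5-deficient libraries near 18 to 19 CPM were above all wild-type libraries, while replicates 1 and 3 lay below wild-type replicate 2. Means were 16.9 ± 2.87 CPM in Atg5-deficient libraries and 12.0 ± 2.02 CPM for wild-type (SD, n = 6 and 5), and the log2 fold change of 0.49 (SE 0.15) had an adjusted p of 0.0556 by edgeR. The call depended on the tool and on single libraries, and was made in 5 of 20 alternative fits. The adjusted p was 0.0175 by DESeq2 and 0.00531 by limma-voom. By edgeR it was 0.0126 without Atg5-deficient replicate 3, 0.0277 without wild-type replicate 2 and 0.0486 with a stricter filter on low counts. With upper-quartile scaling it was 0.0820 by edgeR. Of 11 edgeR fits with 1 library left out only 2 passed, and the adjusted p reached 0.131 without wild-type replicate 1.

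The enzymes on either side of Psat1 were closer between genotypes. Phgdh (ENSMUSG00000053398, chromosome 3, 98313170 to 98339990, minus strand), the dehydrogenase that opens the pathway, had 28.5, 28.1, 23.2, 32.7, 39.7 and 25.1 CPM in Atg5-deficient libraries, against 24.4, 29.4, 22.3, 26.4 and 23.6 CPM in wild-type libraries. Only Atg5-deficient replicates 4 and 5 exceeded the wild-type range, and the log2 fold change was 0.23 (SE 0.13, adjusted p = 0.318 by edgeR). Psph, the phosphatase that releases serine, averaged 11.1 ± 1.30 CPM in Atg5-deficient libraries and 10.3 ± 0.988 CPM for wild-type (SD, n = 6 and 5), with a log2 fold change of 0.11 (adjusted p = 0.623 by edgeR). Psph shares 452 bases with Cct6a on the opposite strand, and since the strand setting of the counting is not given, some of its counts may be reads of Cct6a.

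The mitochondrial folate genes differed in sign, and neither passed. Shmt2 (ENSMUSG00000025403, chromosome 10, 127517123 to 127522444, minus strand), which splits serine into glycine and a folate-bound carbon, had 36.9, 32.3, 35.0, 33.8, 43.3 and 33.9 CPM in Atg5-deficient libraries, against 38.7, 43.6, 38.3, 38.6 and 34.6 CPM in wild-type libraries. Of the Atg5-deficient libraries 3 lay below every wild-type library and none above, with a log2 fold change of -0.11 (SE 0.09, adjusted p = 0.509 by edgeR). Mthfd2 (ENSMUSG00000005667, chromosome 6, 83305691 to 83325908, minus strand), the enzyme of the next mitochondrial step, had 36.0, 40.1, 31.0, 35.9, 46.3 and 39.0 CPM in Atg5-deficient libraries, against 27.3, 36.9, 31.3, 30.4 and 35.0 CPM in wild-type libraries. The highest 3 libraries were Atg5-deficient, the lowest 2 were wild-type replicates 1 and 4, and the rest interleaved. Its log2 fold change of 0.24 (SE 0.11) had an unadjusted p of 0.0437 and an adjusted p of 0.198 by edgeR. Most proliferation transcripts measured were also higher in Atg5-deficient libraries. Mki67, a marker of cycling cells, rose to 364 ± 106 CPM, against 147.5 ± 26.0 CPM in wild-type libraries (SD, n = 6 and 5, log2 fold change 1.30, adjusted p = 0.00792 by edgeR). Of 12 proliferation markers 9 rose by edgeR and 3 did not pass, where 4.43% of all genes were called higher. No proliferation marker was at 0 in any library. Their sum ran from 377 to 902 CPM in Atg5-deficient libraries and from 279.5 to 407 CPM in wild-type libraries. Summed markers, here and below, are CPM of the total count without TMM scaling. The difference in that sum did not pass (exact permutation p = 0.00649, adjusted p = 0.0584 over 18 sums and library properties). The summed markers of dendritic cells ran from 4.69 to 13.2 CPM in Atg5-deficient libraries and from 2.14 to 4.98 CPM in wild-type libraries, with the same exact permutation p of 0.00649 and adjusted p of 0.0584. Of those 6 markers, Itgax rose (log2 fold change 2.67, adjusted p = 0.0300 by edgeR), Zbtb46 and Xcr1 did not pass, Flt3, Siglech and Clec9a were too low to test, and Siglech and Clec9a were at 0 in 3 and 5 libraries. The part of either list in the differences of Psat1 and Mthfd2, and in the count ratios of these genes, was not tested.

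Atf4 itself (ENSMUSG00000042406, chromosome 15, 80255184 to 80257541, plus strand) had 217, 201, 265.5, 202, 183 and 201 CPM in Atg5-deficient libraries, against 203, 228, 234, 214 and 205 CPM in wild-type libraries. The Atg5-deficient libraries held both extremes, and 4 of 6 lay below every wild-type library. The log2 fold change was -0.04 (SE 0.09, adjusted p = 0.861 by edgeR), and it ran from -0.11 to 0.00 when each library was left out in turn. These counts measure the mRNA and say nothing of Atf4 protein. Within the 8 libraries whose titles carry consecutive numbers, which may mark a batch (5 Atg5-deficient and 3 wild-type), the log2 fold changes were 0.37 for Psat1, 1.22 for Asns, 0.21 for Mthfd2 and 0.29 for Slc1a5, and none passed (adjusted p = 0.352, 0.229, 0.508 and 0.288 by edgeR).

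**Figure D2:**
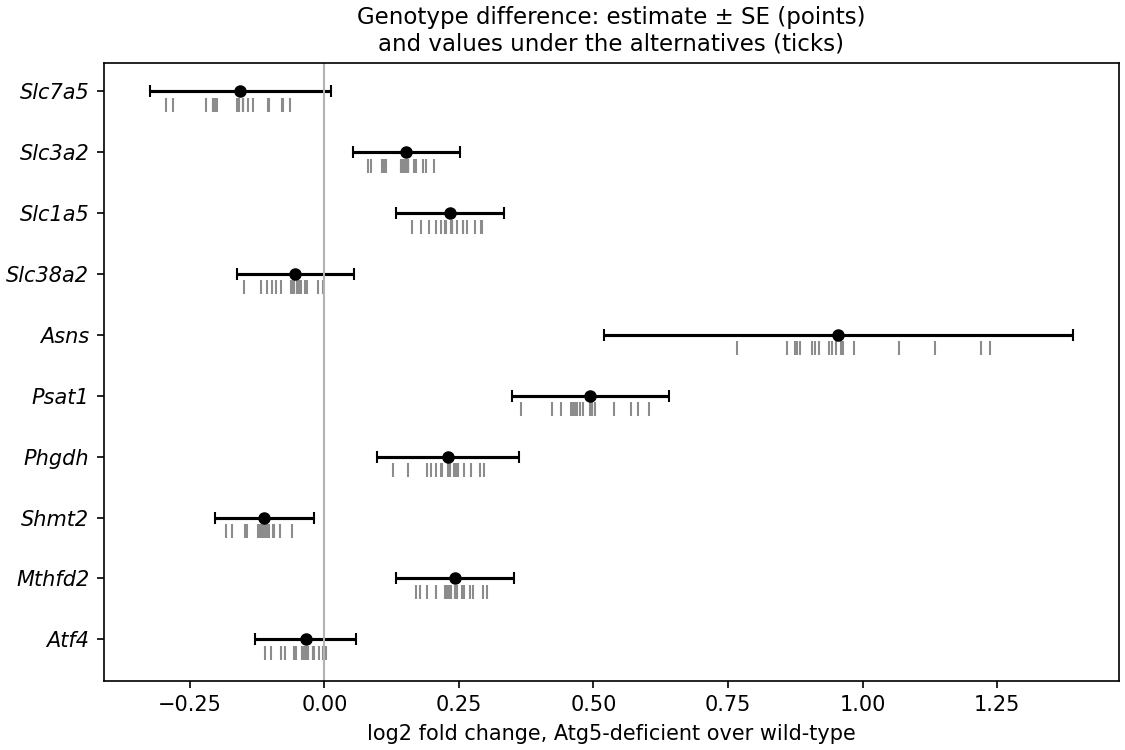
Log2 fold change (Atg5-deficient over wild-type, edgeR, horizontal axis) of each of the 10 genes, with bars of 1 SE and ticks for the values under each alternative processing or with 1 library left out. Asns has the largest value at 0.95 with the widest bar, Psat1 follows at 0.49, and Slc7a5, Shmt2, Slc38a2 and Atf4 lie below 0.

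A count ratio within a library does not depend on library size, so 4 pairs of related genes were also compared by their ratios, each tested by a two-sided exact permutation test over 462 arrangements of the genotype labels, with Benjamini-Hochberg adjustment over the 4. Mthfd2 over Mthfd1, which sets the mitochondrial enzyme beside the cytosolic folate enzyme, differed most. The ratio was 1.19, 1.08, 1.16, 1.23, 1.16 and 1.53 in Atg5-deficient libraries, against 0.758, 0.840, 0.926, 0.7096 and 0.895 in wild-type libraries. Counts of Mthfd2 exceeded those of Mthfd1 in every Atg5-deficient library and fell short of them in every wild-type library, so the groups did not overlap. Mean log2 ratios were 0.28 ± 0.17 in Atg5-deficient libraries and -0.28 ± 0.16 in wild-type libraries (SD, n = 6 and 5), a 1.48-fold difference in the ratio (log2 difference 0.57, exact p = 0.00216, the smallest the design allows, adjusted p = 0.00866). Mthfd1 averaged 31.4 ± 5.78 CPM in Atg5-deficient libraries and 39.1 ± 4.29 CPM in wild-type libraries, with a log2 fold change of -0.32 (adjusted p = 0.137 by edgeR). Neither gene passed the test across genes, and the ratio shows an unequal difference of the pair rather than which gene differed. The 4 pairs were chosen with earlier results of these data known, which the permutation p does not take into account. How many other gene pairs would separate without overlap was not computed, and 4.86% of single genes did so. Among the 8 libraries of consecutive number the log2 difference was 0.51, with an adjusted p of 0.0714 by exact permutation. The smallest p possible there is 0.0179 before adjustment, which becomes 0.0714 when 1 ratio alone of the 4 reaches it. A single ratio could therefore not pass in those libraries, whatever its separation. The promoter windows of the pair hold neither motif and are given because the ratio turns on these genes. That of Mthfd2 is chr6:83317555-83317854 on the minus strand, and that of Mthfd1 is chr12:76254982-76255281 on the plus strand.
Mthfd2: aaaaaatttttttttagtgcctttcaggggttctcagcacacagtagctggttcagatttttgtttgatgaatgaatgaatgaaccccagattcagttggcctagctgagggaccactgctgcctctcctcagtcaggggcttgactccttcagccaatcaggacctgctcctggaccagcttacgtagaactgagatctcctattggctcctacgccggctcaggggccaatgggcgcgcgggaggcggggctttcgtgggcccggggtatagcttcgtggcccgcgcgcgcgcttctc
Mthfd1: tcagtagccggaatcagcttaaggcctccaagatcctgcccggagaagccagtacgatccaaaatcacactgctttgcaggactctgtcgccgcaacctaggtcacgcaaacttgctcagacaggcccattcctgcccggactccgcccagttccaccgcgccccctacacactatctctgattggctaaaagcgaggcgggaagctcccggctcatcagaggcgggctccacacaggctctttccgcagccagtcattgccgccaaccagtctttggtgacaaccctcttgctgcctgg

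**Figure D3:**
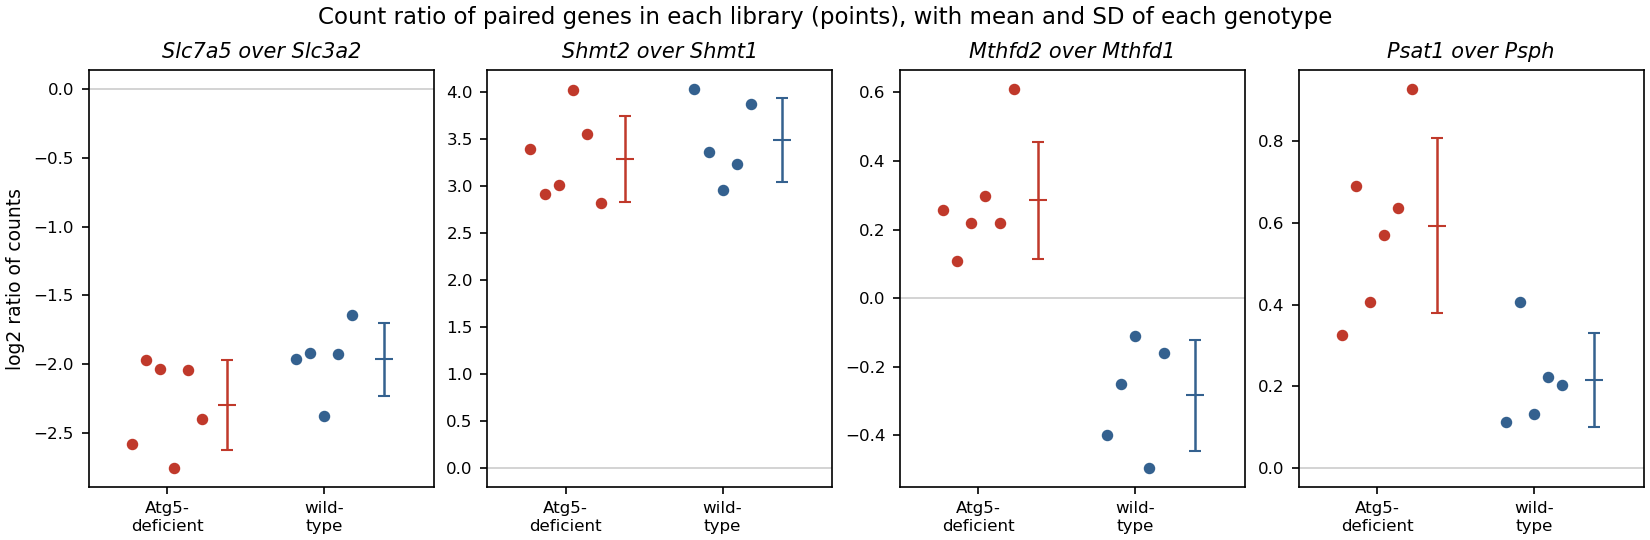
Log2 count ratios within each library (vertical axes, no length correction) for the 4 gene pairs, with Atg5-deficient libraries left of wild-type libraries and the mean and SD of each genotype. Mthfd2 over Mthfd1 separates the groups, with ratios from 1.08 to 1.53 in Atg5-deficient libraries and from 0.7096 to 0.926 in wild-type libraries, and the other pairs overlap.

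Psat1 over Psph, neighbouring steps of serine synthesis, was 1.25, 1.61, 1.32, 1.49, 1.56 and 1.90 in Atg5-deficient libraries, against 1.08, 1.32, 1.10, 1.17 and 1.15 in wild-type libraries. The ratio of 5 of 6 Atg5-deficient libraries was above all wild-type libraries, replicate 3 by the narrowest margin, and that of replicate 1 lay between wild-type replicates 2 and 4. The log2 difference of 0.38 passed the test (exact p = 0.0108, adjusted p = 0.0216), and within the 8 libraries of consecutive number it was 0.27 (adjusted p = 0.107 by exact permutation). The overlap of Psph with Cct6a, given above, makes the denominator uncertain. Slc7a5 over Slc3a2, the light and heavy chain of 1 transporter, ran from 0.148 to 0.255 in Atg5-deficient libraries and from 0.192 to 0.320 in wild-type libraries, a log2 difference of -0.33 that did not pass (exact p = 0.0974, adjusted p = 0.130). Without wild-type replicate 3 it was -0.44 with an adjusted p of 0.0444 by exact permutation, the only alternative setting in which it passed. Shmt2 over Shmt1, the mitochondrial and cytosolic serine hydroxymethyltransferases, differed by -0.21 on the log2 scale (exact p = 0.459, adjusted p = 0.459), and by 0.19 within the 8 libraries of consecutive number. Shmt1 shares 184 bases with Smcr8 on the opposite strand, so its counts are uncertain.

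The 10 genes varied among the libraries in separate directions. Atg5-deficient replicate 3, singled out after its values were seen, ranked 1st of 11 libraries in Slc7a5, Slc3a2, Slc38a2 and Atf4, 2nd in Asns, 7th in Psat1 and Shmt2, 9th in Mthfd2 and 10th in Slc1a5 and Phgdh. It also had the lowest total, 30699408 counts, and its summed proliferation markers of 377 CPM fell inside the 279.5 to 407 CPM of wild-type libraries, while the other Atg5-deficient libraries had 694 to 902 CPM. Over the 11 libraries, 45 pairs of the 10 genes were correlated on log2 CPM with Benjamini-Hochberg adjustment over the pairs. By Pearson's r 2 pairs passed, and by both measures 0 did. Psat1 and Mthfd2 had r = 0.85 (permutation p = 0.0007, adjusted p = 0.0315) and Spearman's rho = 0.84 (permutation p = 0.00235, adjusted p = 0.0529). Their r was 0.79 without the 2 libraries farthest from the median of Psat1, 0.86 within the 8 libraries of consecutive number and 0.77 after each genotype's mean was subtracted. Slc38a2 and Atf4 had r = 0.85 (permutation p = 0.00156, adjusted p = 0.0351) and rho = 0.79 (adjusted p = 0.0822 by permutation). Its r was 0.89 within the 8 libraries of consecutive number, 0.85 after each genotype's mean was subtracted and 0.70 without Atg5-deficient replicate 3. Without the 2 libraries farthest from the median of Slc38a2, Atg5-deficient replicates 3 and 5, it was 0.47, so the size of the relation rested in part on those libraries. The pairs share library, depth and scaling.

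**Figure D4:**
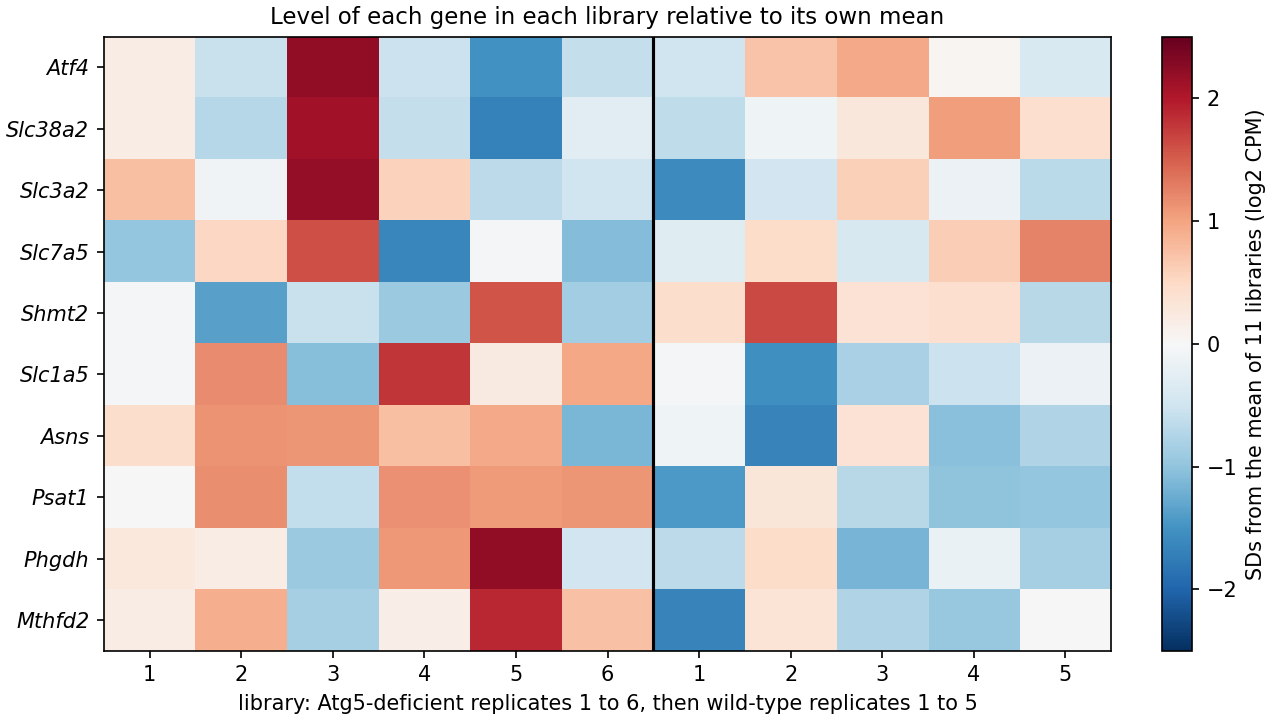
Log2 CPM of each of the 10 genes as its distance from the gene's mean over the 11 libraries, in SDs (colour), with genes in rows and libraries in columns, Atg5-deficient left of wild-type. Atg5-deficient replicate 3 stands high for Slc7a5, Slc3a2, Slc38a2, Atf4 and Asns but not for Psat1, Phgdh, Mthfd2, Shmt2 and Slc1a5.

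The other genes of these pathways were followed in 8 lists, whose counts of genes called by edgeR stand against the 6.84% called over all genes. Counts at an unadjusted p under 0.05 by edgeR stand against 23.4% of all genes, those by DESeq2 against 14.1% and those by limma-voom against 19.0%. Of 19 other amino acid transporters, 17 were tested and 0 were called by edgeR (3 at an unadjusted p under 0.05, with 1 called by DESeq2 and 3 by limma-voom), with a median log2 fold change of 0.08. Slc38a10 came nearest, at 0.24 (adjusted p = 0.0527 by edgeR). Slc36a4, a lysosomal amino acid transporter, had 12.5 to 14.5 CPM in Atg5-deficient libraries and 9.61 to 12.1 CPM in wild-type libraries, without overlap, yet did not pass (log2 fold change 0.28, adjusted p = 0.124 by edgeR). The light chains Slc7a8 and Slc7a11 were too low to test. Of 20 other serine, glycine and folate genes, 19 were tested and 1 was called, with a median of 0.02 that became -0.05 with upper-quartile scaling. Tyms, which makes thymidylate, had a log2 fold change of 0.67 and did not pass (adjusted p = 0.104 by edgeR). The part of the proliferation transcripts described above in these values was not tested.

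Among 20 other Atf4 targets and stress genes, 16 were tested and 1 was called, with a median of 0.23. Ddit4, whose product restrains mTORC1, rose to 94.8, 105, 94.0, 80.3, 119 and 77.6 CPM in Atg5-deficient libraries, against 78.5, 74.2, 66.4, 58.9 and 78.3 CPM in wild-type libraries (log2 fold change 0.42, adjusted p = 0.0461 by edgeR). The groups met at Atg5-deficient replicate 6, and the gene was not called with upper-quartile scaling. With 1 library left out it stayed past the threshold in 3 of 11 fits (adjusted p from 0.0267 to 0.107 by edgeR), and was lost without Atg5-deficient replicates 1, 2 or 5 or any 1 wild-type library. In the 8 libraries of consecutive number the log2 fold change was 0.57 (adjusted p = 0.0614 by edgeR). Ddit3 and Trib3, stress genes downstream of Atf4, and the other tested genes of the list did not pass. Ddit3 averaged 15.1 ± 1.28 CPM in Atg5-deficient libraries and 14.6 ± 2.22 CPM in wild-type libraries (log2 fold change 0.06, adjusted p = 0.818 by edgeR), and Trib3 had a log2 fold change of -0.29 (adjusted p = 0.396 by edgeR). A second annotated entry of Ddit3, with 766 counts over all libraries against 6107, was not added. Ddit3 also shares 68 bases with Mars on the opposite strand, so its counts are uncertain. Of 16 genes for the eIF2 kinases, phosphatases and exchange factor, 0 were called by edgeR, with a median of -0.01. At an unadjusted p under 0.05 by edgeR 3 differed, against 23.4% of all genes. DESeq2 called 1 and limma-voom 2, against 14.1% and 19.0%. Eif2ak4, which encodes the kinase Gcn2 that senses uncharged tRNA, had a log2 fold change of -0.17 (adjusted p = 0.347 by edgeR).

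Of 20 cytosolic aminoacyl-tRNA synthetases, which charge tRNAs with amino acids, 1 was called, with a median of 0.08. Wars, the tryptophan enzyme, rose to 53.7, 45.5, 40.4, 48.7, 71.9 and 46.1 CPM in Atg5-deficient libraries, against 32.6, 37.2, 34.8, 36.3 and 34.4 CPM in wild-type libraries (log2 fold change 0.54, adjusted p = 0.0214 by edgeR). Every Atg5-deficient library was above all wild-type libraries, and the adjusted p by edgeR was 0.0556 without wild-type replicate 1 and 0.0531 without wild-type replicate 5, the 2 of 11 omissions that ended the call. In the 8 libraries of consecutive number the call was lost too (log2 fold change 0.53, adjusted p = 0.129 by edgeR). Wars is also known as a gene induced by interferon gamma, unlike most of its list. Aars and Gars had log2 fold changes of 0.33 and 0.26 and did not pass (adjusted p = 0.0758 and 0.0922 by edgeR). Of 32 genes of mTORC1 and amino acid sensing, 1 was called, with a median of 0.04 that became -0.03 with upper-quartile scaling. Sesn1, an inhibitor of mTORC1, fell to 55.0, 61.9, 54.5, 49.5, 69.7 and 78.5 CPM in Atg5-deficient libraries, against 104, 89.9, 77.8, 79.6 and 81.4 CPM in wild-type libraries (log2 fold change -0.49, adjusted p = 0.0272 by edgeR). The groups touched only where Atg5-deficient replicate 6 exceeded wild-type replicate 3. Leaving out Atg5-deficient replicates 1, 2 or 4 or wild-type replicates 1 or 5 ended the call, with adjusted p between 0.0508 and 0.0735 by edgeR, and so did the 8 libraries of consecutive number alone (log2 fold change -0.50, adjusted p = 0.0639 by edgeR).

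Of 21 genes for glutamine, glutamate, aspartate and proline enzymes and their neighbours, 20 were tested and 5 were called, 3 higher and 2 lower, against 6.84% of all genes, with a median of 0.14. The count was 1 without wild-type replicate 1, 1 without wild-type replicate 5, 3 without wild-type replicate 4 and 0 in the 8 libraries of consecutive number. Ass1, which joins citrulline and aspartate and so precedes Asl in arginine synthesis, rose to 162, 175, 139.8, 139.8, 243 and 163 CPM in Atg5-deficient libraries, against 100.4, 124, 104, 104 and 113 CPM in wild-type libraries (log2 fold change 0.64, adjusted p = 0.0120 by edgeR). The groups did not overlap, and the gene was called whichever 1 of the 11 libraries was left out, but not in the 8 libraries of consecutive number (log2 fold change 0.64, adjusted p = 0.0968 by edgeR). Asl, the next enzyme, rose to 21.8 to 24.1 CPM in Atg5-deficient libraries, against 15.7 to 19.8 CPM in wild-type libraries, also without overlap (log2 fold change 0.39, adjusted p = 0.0206 by edgeR). Its call was lost without wild-type replicates 1, 4 or 5 (adjusted p from 0.0515 to 0.0598 by edgeR). Ass1 is abundant in hepatocytes, whose other summed markers ran from 80.2 to 1409 CPM in Atg5-deficient libraries and from 57.5 to 806 CPM in wild-type libraries, and with that sum as a covariate the adjusted p of Ass1 was 0.0134 by edgeR. Got2, the mitochondrial aspartate transaminase, named after its values were seen because it was the fifth called gene, rose with a log2 fold change of 0.48 (adjusted p = 0.0313 by edgeR), a call that 3 of 11 fits with 1 library left out kept (adjusted p from 0.00112 to 0.0735), those without Atg5-deficient replicates 3 or 6 or wild-type replicate 2. The genes that fell act in the breakdown of branched-chain amino acids, the substrates of the Slc7a5 transporter. Bcat2, their mitochondrial transaminase, fell to 14.5 to 22.0 CPM in Atg5-deficient libraries, against 21.7 to 26.8 CPM in wild-type libraries (log2 fold change -0.47, adjusted p = 0.0219 by edgeR). Bckdhb, a subunit of the dehydrogenase of the next step, fell to 2.99 to 3.64 CPM in Atg5-deficient libraries, against 4.03 to 7.84 CPM in wild-type libraries, without overlap (log2 fold change -0.78, adjusted p = 0.0254 by edgeR). The list's other genes of branched-chain breakdown were not called by edgeR. The calls of Bcat2 and Bckdhb were both lost without wild-type replicate 1 and without wild-type replicate 5. There the adjusted p by edgeR was 0.0546 and 0.0625 for Bcat2 and 0.0756 and 0.0567 for Bckdhb. Of 10 genes for Myc and its partners, 8 were tested and 0 were called by edgeR, with a median of 0.18. At an unadjusted p under 0.05 by edgeR 4 of the 8 differed, against 23.4% of all genes. DESeq2 called 1 and limma-voom 4, against 14.1% and 19.0%. Myc itself had a log2 fold change of -0.19 (adjusted p = 0.557 by edgeR).

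**Figure D5:**
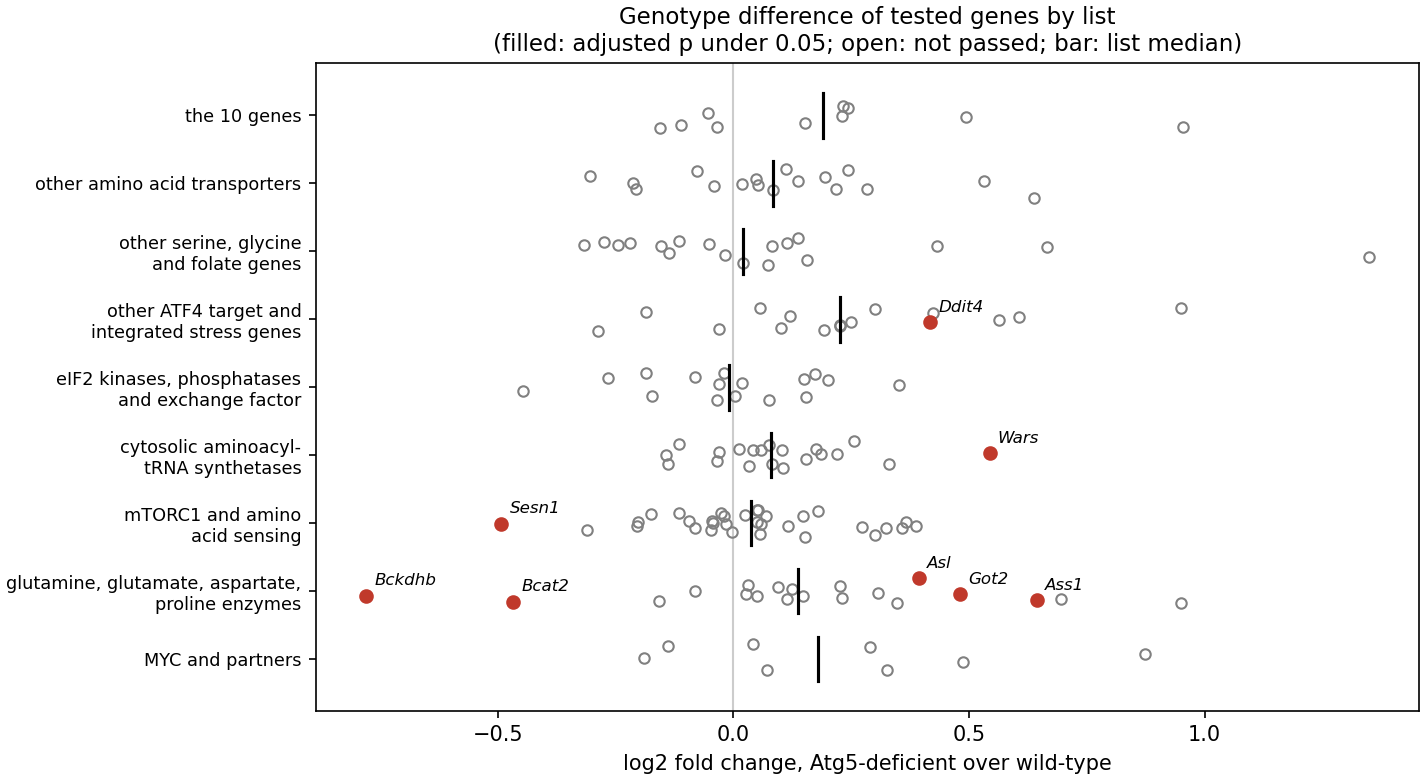
Log2 fold changes (Atg5-deficient over wild-type, edgeR) of the tested genes among the 10 and in each of the other lists, 1 point per gene, with a bar at each median and called genes filled; 1 called gene of the serine, glycine and folate list is not drawn. Called genes are 5 of 20 among the glutamine, glutamate, aspartate and proline enzymes and at most 1 in each other row.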

How the data were processed

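RNA-seq raw counts of reads per Ensembl gene were deposited as 1 table of 11 libraries, and per the submitters' processing notes STAR, featureCounts and the build GRCm38 were used. Versions, annotation release, strand setting and duplicate handling are not given there, so overlapping genes may share reads. Symbols, exon lengths and positions came from GENCODE M21 (GRCm38), which held 52125 of 56748 IDs (91.9%, with 89.3% to 96.5% of the reads of a library). The table had 0 columns of other samples. Libraries held 30699408 to 47564440 counts. Genotypes came from the labels.

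Low genes were removed with filterByExpr (count 10, total 15), libraries scaled by TMM and genotype tested with edgeR's robust quasi-likelihood test over 17987 genes, Benjamini-Hochberg adjusted, threshold 0.05. Count ratios and summed markers were compared by two-sided exact permutation over 462 splits. Correlations used 100000 resamples. Software was edgeR 4.0.16, DESeq2 1.42.0 and limma 3.58.1 under R 4.3.3, with scipy 1.17.1. Tested on simulated data over 18065 genes, the edgeR fit recovered 11.9%, 50.7% and 63.6% of genes changed 1.5-fold, 2-fold and 4-fold, with 9 false calls of 93.

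The 10 genes, the lists and the tests were chosen with earlier results of these data known. Genes named are the 10, Psph, Shmt1, Mthfd1, Ddit3, Trib3, Eif2ak4, Myc, Mki67 and Atg5 always, and up to 4 others per list with the smallest p; some of these are left unnamed, and the 1 gene called in the serine, glycine and folate list is not reported here. Alternatives were other scalings (relative log expression, upper quartile), DESeq2, limma-voom with quality weights, no or a strict filter, library sizes that leave out haemoglobin, hepatocyte and mitochondrial genes, the 8 libraries of consecutive title number alone, each library left out, and 2 chosen after seeing the data: a hepatocyte marker covariate, and ratios without the 3 libraries highest in those markers.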

Additional observations from a re-analysis of the deposited data

Results flagged for a closer look

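Of 64 groups of values tested for a library far from the rest, 6 were flagged by Dixon's criterion, which chance meets in about 1 in 20 groups. The Mthfd2 over Mthfd1 count ratio of Atg5-deficient replicate 6, 1.53, stood above the other 5 Atg5-deficient libraries, and without that library the difference between genotypes still passed. In Atg5-deficient replicate 4 the summed markers of NK cells and innate lymphocytes came to 89.96 CPM and those of cholangiocytes to 102 CPM (per total count, without TMM scaling), and 1 gene carried most of each sum. Eomes reached 84.7 CPM and Spp1 96.3 CPM, whereas over the Atg5-deficient libraries Ncr1 was at most 0.289 CPM, Klrb1c 3.81 CPM, Krt19 0.521 CPM and Krt7 0.364 CPM, so the marker lists as a whole were not high. The number of genes with at least 1 read was high in Atg5-deficient replicate 2, at 33192, and in wild-type replicate 3, at 30811. The 20 most abundant genes took 28.0% of the counts of Atg5-deficient replicate 1, the highest share in that group.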

How the results depend on the processing

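Psat1 passed the threshold with DESeq2 (log2 fold change 0.50), limma-voom (0.58) and the strict low-count filter (0.48), each of which therefore called 1 of the 10 genes. With 1 library left out its value ran from 0.44 to 0.60, that of Slc1a5 from 0.18 to 0.29 and that of Atf4 from -0.11 to 0.0033, and 0 to 2 of the 10 genes were called. Over all genes the count was 1231, against 2333 by DESeq2, 3426 by limma-voom, 176 in the 8 libraries of consecutive title number alone (fewer samples) and 642 to 2143 with 1 library left out. For the lists, DESeq2 called 1 of 17 other transporters, 2 of 19 serine, glycine and folate genes, 1 of 16 Atf4 targets and 1 of 16 eIF2 genes. It also called 2 of 20 synthetases, 1 of 32 mTORC1 genes, 6 of 20 in the glutamine list and 1 of 8 Myc genes. Over all genes it tested the share was 14.1%. Limma-voom called 3 of 17 other transporters, 3 of 19 serine, glycine and folate genes, 4 of 16 Atf4 targets and 2 of 16 eIF2 genes. It also called 4 of 20 synthetases, 8 of 32 mTORC1 genes, 7 of 20 in the glutamine list and 4 of 8 Myc genes, against 19.0% of all genes. The strict filter and the smaller library size each called 1 other transporter, and upper-quartile scaling 0 Atf4 targets. In the 8 libraries alone 0 were called among serine, glycine and folate genes, Atf4 targets, synthetases, mTORC1 genes and glutamine, glutamate, aspartate and proline enzymes. With 1 library left out the counts ran from 0 to 1 for other transporters, eIF2 genes and Myc genes, 0 to 2 for serine, glycine and folate genes, Atf4 targets and mTORC1 genes, 0 to 3 for synthetases and 1 to 6 for the glutamine list. In the 8 libraries the log2 ratio difference was 0.51 for Mthfd2 over Mthfd1, 0.27 for Psat1 over Psph and, with its sign reversed, 0.19 for Shmt2 over Shmt1. With 1 library left out, Slc7a5 over Slc3a2 ran from -0.44 to -0.24. Differences in summed markers that reversed in the 8 libraries, in CPM, were 0.230 for CD8 T cells, -1.32 for macrophages and monocytes, -0.452 for stellate cells and fibroblasts and 3.03 for erythroid cells. The causes were not tested. No paired analysis was possible because replicate numbers were given in accession order and the labels pair no libraries. On simulated counts the test recovered 11.9% of 1.5-fold and 63.6% of 4-fold changes, in genes drawn from every level that passed the filter. Those shares are averages over such genes and do not give the chance of a call for any 1 gene. The SE of the log2 fold change ran from 0.09 for Shmt2 to 0.44 for Asns among the 10 genes. Some genes of the lists, Asl and Ddit4 among them, were called at differences below 1.5-fold.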
